A study of Mus musculus with 208 samples.

Results

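Interferon-stimulated genes are switched on in a cell when interferon, a secreted alarm signal, binds its receptor. The 9 described here are Irf7, Usp18, Oasl2, Ifit1, Ifit3, Isg15, Bst2, Rtp4 and Ifi27. They were chosen by symbol as well-known interferon-stimulated genes of the mouse, and all 9 were found among the 39179 gene IDs of the expression files. They were measured in striatum, the forebrain region rich in medium spiny neurons, of C57BL/6 mice heterozygous for a Huntington disease knock-in allele and of wild types. Each knock-in mouse carried 1 altered allele of huntingtin (Htt), and the lines are named after their CAG repeat length: Q20, Q80, Q92, Q111, Q140 and Q175. The wild types carried no altered allele. Mice were 2, 6 or 10 months old, and each age was a cohort of its own, so age and cohort cannot be told apart. There were 26 groups of 8 libraries each, which makes 56 libraries for each of the ages 2 and 10 months and 96 for 6 months. The wild types of 6 months came from the cages of each line in turn, whereas those of 2 and 10 months were housed with Q20. Groups held 4 females and 4 males, apart from Q80 at 2 months (3 and 5) and Q20 at 10 months (5 and 3).

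Type I interferons bind a receptor that activates JAK kinases, and transcription factors downstream bind a DNA element rich in GAAA repeats and so turn on a set of antiviral genes. IRF7 is itself induced and amplifies the production of interferon, ISG15 is a ubiquitin-like protein joined to other proteins, and USP18 takes ISG15 off again and damps the receptor. Type II interferon has a receptor of its own and raises genes of antigen presentation. In the brain microglia, astrocytes, endothelial cells and neurons can all respond.

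Levels of the 9 genes were low. In FPKM, which corrects for gene length, the median over all libraries was highest for Ifi27, an interferon-inducible membrane protein, at 23.9 FPKM. It was 4.99 FPKM for Ifit3, 2.91 for Bst2, 2.17 for Isg15, 1.78 for Oasl2, 1.21 for Irf7, 1.14 for Rtp4, 0.983 for Ifit1 and 0.613 for Usp18. None of the 9 was at 0 in any library, and the lowest expected count of any member was 21, for Usp18. All 9 passed the filter on low counts at every age. Reads of Ifit1 and Ifit3 were shared with close copies: their expected counts were not whole numbers in 88.9% and 100% of libraries, so the split between Ifit3 and its copy Ifit3b is uncertain. Irf7 overlaps Phrf1 and Usp18 overlaps the predicted gene Gm44148 on the other strand, and Rtp4 overlaps Gm45338 on the same strand (GENCODE M21). Since the sources used here do not state whether counting used strand, those reads may be mixed. The expected counts of Irf7, Usp18 and Rtp4 were not whole numbers in 0% of libraries, and mixing itself was not tested.

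The promoters of Ifit1, Ifit3, Isg15 and Bst2 are shown because each holds the GAAA-repeat letters of an interferon-response element more than once in the stretch upstream of the start. The table of RefSeq promoters (GRCm38.p6) held 6 of the 9 genes, with 250 bases before and 50 bases after each start. The motif searched was GAAANNGAAA on both strands, matches that overlap were each counted, and the matched bases are in capitals. The 120 bases shown run 5′ to 3′ on the gene's own strand, from 166 to 47 bases before the start. They are chr19:34640723-34640842 (plus strand) for Ifit1, chr19:34583363-34583482 (plus strand) for Ifit3, chr4:156200865-156200984 (minus strand) for Isg15 and chr8:71537519-71537638 (minus strand) for Bst2.
Ifit1: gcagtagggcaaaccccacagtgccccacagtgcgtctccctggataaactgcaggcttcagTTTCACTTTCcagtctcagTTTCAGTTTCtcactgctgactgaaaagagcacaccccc
Ifit3: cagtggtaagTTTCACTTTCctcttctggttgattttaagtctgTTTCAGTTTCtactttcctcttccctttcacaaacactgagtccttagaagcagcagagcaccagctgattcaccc
Isg15: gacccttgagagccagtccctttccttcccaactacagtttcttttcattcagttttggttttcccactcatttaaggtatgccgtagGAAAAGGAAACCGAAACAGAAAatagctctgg
Bst2: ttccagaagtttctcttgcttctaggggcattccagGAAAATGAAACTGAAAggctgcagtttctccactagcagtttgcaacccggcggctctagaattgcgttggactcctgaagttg

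Ifit1 and Ifit3 each held 2 separate matches on the opposite strand, Isg15 held 3 and Bst2 2, overlapping in a row. The windows of Irf7 and Oasl2 held none of these letters. The bases after the RefSeq start were found near the beginning of 1 of 13 GENCODE M21 transcripts for Irf7 and 0 of 9 for Oasl2. For Ifit3 it was 0 of 1, for Bst2 0 of 2, and for Ifit1 and Isg15 1 of 1 each. Matches and distances therefore hold for the RefSeq starts only. Of 32851 promoter windows in the table, 1131 (3.44%) held at least 1 match and 74 (0.225%) held 2 or more. A match describes letters and is not a measured binding site.

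Total counts ran from 29.1 to 49.6 M per library, and the median library held 31.9 M (2 months), 41.0 M (6 months) or 33 M (10 months). Htt, the altered gene, averaged 117 ± 15.5 CPM in Q175 and 170 ± 9.86 CPM in Q20 at 10 months (SD, n = 8 each). Of the 2-month libraries 7 stood apart: mitochondrial genes took 17.2 to 24.1% of their counts and 11.4 to 14.9% of those of the other 49. Also, 1 library labelled male, in Q80, had no count on Y-linked genes. Levels below are CPM, counts relative to the scaled library size. Groups were compared with edgeR's quasi-likelihood test with sex in the model, and a gene was called when its p, adjusted by Benjamini-Hochberg over all genes tested, was under 0.05.

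In Q175 striatum at 10 months most of the interferon-stimulated genes were higher than in Q20. All 9 differences were positive and 7 of the 9 genes rose: Irf7, Usp18, Oasl2, Ifit1, Ifit3, Rtp4 and Ifi27, by 0.34 to 1.0 on the log2 scale. In the same comparison 24.5% of all genes tested were called, and 12.4% of all genes tested were called higher. The median log2 change was 0.58 over the 9 genes and 0.01 over all genes. Q175 and Q20 libraries overlapped for every member, and the Q175 libraries covered a wider range.

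Irf7, the transcription factor that amplifies the response, changed most. Its lowest, median and highest levels were 2.22, 3.27 and 8.58 CPM in Q175 and 1.28, 2.04 and 2.73 CPM in Q20. All 8 Q175 libraries lay above the Q20 mean, and 5 lay above every Q20 library. The log2 change was 1.0 (SE 0.168, adjusted p = 6.21e-06). Phrf1, which lies across from Irf7, averaged 46.3 ± 3.61 CPM in Q175 and 46.3 ± 4.85 CPM in Q20 (log2 change 0.01, adjusted p = 0.951). The negative regulator Usp18 ran from 1.02 to 4.59 CPM in Q175, median 1.62, and from 0.913 to 1.78 CPM in Q20, median 1.26. Its change was 0.78 (SE 0.192, adjusted p = 0.00161), with 6 Q175 libraries above the Q20 mean. Isg15, the modifier that Usp18 removes, had 1.10, 1.82 and 3.74 CPM in Q175 and 1.16, 1.48 and 2.53 CPM in Q20. Its difference of 0.46 (SE 0.189, adjusted p = 0.0681) did not pass, and the lowest Q175 library was below every Q20 library.

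Among the antiviral effectors, Ifit1 and Ifit3 belong to a family of proteins, some of which bind foreign RNA and block its translation. Ifit1 had 3.04, 4.17 and 10.2 CPM in Q175 and 2.43, 3.28 and 5.76 CPM in Q20 (log2 change 0.66, SE 0.171, adjusted p = 0.00287). Ifit3 had 8.52, 12.8 and 31.7 CPM in Q175 and 8.58, 11 and 16.2 CPM in Q20 (0.47, SE 0.151, adjusted p = 0.0174). For both genes the groups overlapped and the Q175 maximum stood above every Q20 library. The copy Ifit3b also rose, by 0.37 (SE 0.126, adjusted p = 0.0274). Oasl2, a relative of the enzymes that sense double-stranded RNA, had 3.80, 5.17 and 13.9 CPM in Q175 and 3.27, 4.39 and 8.0 CPM in Q20 (0.58, SE 0.198, adjusted p = 0.0265). Bst2 (tetherin) holds budding virus at the cell membrane. It had 1.39, 2.34 and 4.98 CPM in Q175 and 1.43, 1.92 and 3.20 CPM in Q20, a difference of 0.48 (SE 0.202, adjusted p = 0.0727) that did not pass.

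Rtp4, a chaperone of membrane receptors, had 1.81, 3.19 and 4.90 CPM in Q175 and 1.6, 2.03 and 2.58 CPM in Q20, and 5 Q175 libraries lay above every Q20 library. Its change was 0.70 (SE 0.164, adjusted p = 0.000955). Ifi27 had 19.6, 22.9 and 33 CPM in Q175 and 16.6, 20.2 and 22.9 CPM in Q20. Its change of 0.34 was the smallest of the 9, with 7 of 8 Q175 libraries above the Q20 mean (SE 0.0771, adjusted p = 0.000647).

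**Figure D1:**
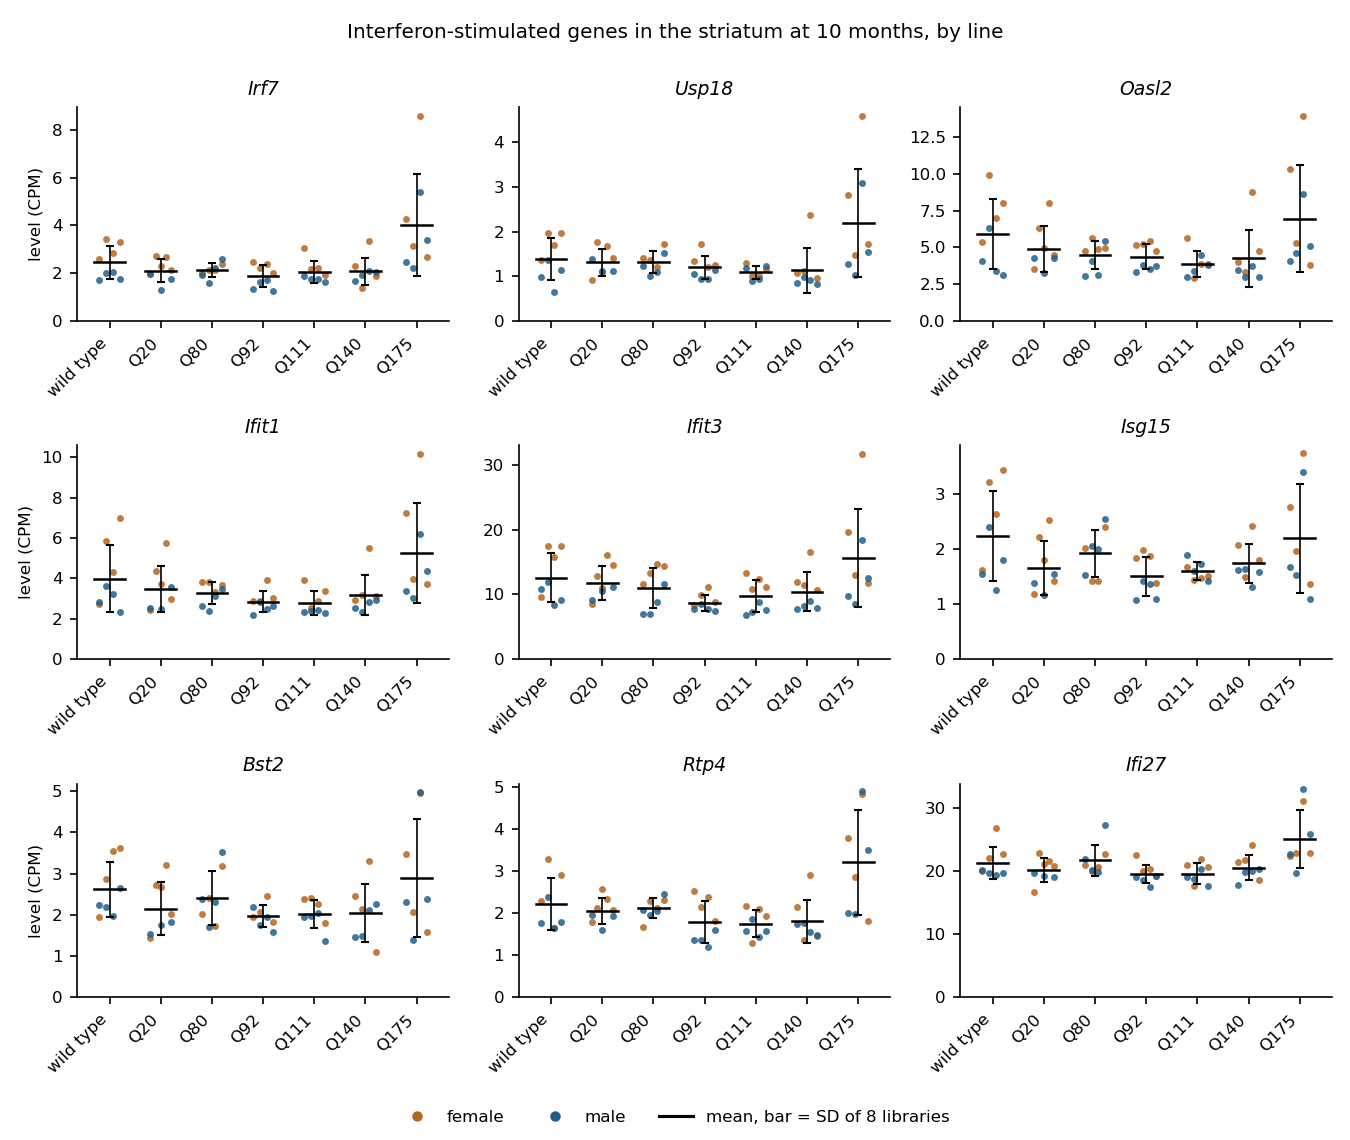
Level of each of the 9 genes at 10 months in CPM (vertical axis) in wild types and in the 6 knock-in lines in order of repeat length; each point is a library, coloured by sex, and bars give the mean and SD of 8 libraries. In each panel Q175 is spread upwards, reaching 8.58 CPM for Irf7 and 31.7 CPM for Ifit3, while the lines from Q20 to Q140 lie near each other.

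The highest Q175 values came from the same animals across the members. Female F3 was highest for 6 members and male M3 for 3, with summed levels of the 9 genes of 114 and 88.0 CPM, and the other 6 Q175 libraries had sums of 44.0 to 76.7 CPM. Male M2 was lowest for 6 members. Without F3 the call was lost for Oasl2 (0.41, adjusted p = 0.132) and Ifit3 (0.30, adjusted p = 0.123), and likewise without M3 (Oasl2 adjusted p = 0.0846, Ifit3 adjusted p = 0.0669) and without the Q20 female F1 (0.0657 and 0.0515). Oasl2 also lost its call without Q175 F1 (0.0602) or Q20 F5 (0.0553). Isg15 gained a call without Q175 F4 (0.0274), Q175 M4 (0.0301) or Q20 F4 (0.0328), and Bst2 without Q175 F2 (0.0417), F4 (0.0257) or M2 (0.0278) or Q20 F4 (0.0394). Irf7, Usp18, Ifit1, Rtp4 and Ifi27 passed in each of these 16 fits. With only the libraries of both groups in the fit 4 members were called, where 3823 of 16433 genes were called and 1790 were higher.

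Against wild types of 10 months, which share these Q175 libraries, 4 of the 9 genes rose, in a comparison where 24.6% of all genes were called and 12.5% higher. Irf7 had 1.70, 2.32 and 3.43 CPM in wild types and its log2 change in Q175 was 0.73 (SE 0.166, adjusted p = 0.000583). Usp18 changed by 0.67 (adjusted p = 0.0066), Rtp4 by 0.56 (adjusted p = 0.0073) and Ifi27 by 0.25 (adjusted p = 0.013). The Q20 mean lay below the wild-type mean of this age for all 9 members, although no member was called in Q20 against wild type (edgeR, 0 of 9, with Isg15 at an unadjusted p under 0.05; 0.0116% of all genes called). The differences of Ifit1 (0.42, adjusted p = 0.0616), Ifit3 (0.32, 0.114), Oasl2 (0.27, 0.35), Bst2 (0.16, 0.609) and Isg15 (-0.00, 0.993) did not pass. Isg15 averaged 2.19 ± 0.986 CPM in Q175 and 2.24 ± 0.811 CPM in wild types, so it was the only member whose Q175 mean was not the highest of the 7 groups of 10 months. Here too single libraries counted: the call was lost for Usp18 without Q175 F3 (adjusted p = 0.0582), for Rtp4 without M3 (0.0509) and for Ifi27 without F3 (0.0504) or M3 (0.0881). Ifit1 gained one when any of 6 libraries was left out (0.0151 to 0.0447), 4 of Q175 (F2, F4, M1 and M2) and 2 of the wild types (F2 and F4), and Ifit3 without Q175 F4 (0.0462). With only the libraries of both groups in the fit 1 member was called, where 3415 of 16424 genes were called and 1616 were higher.

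Q175 also differed from Q140, the line with the next longest repeat. Only 0.414% of all genes were called between these lines at 10 months, 69 higher (0.402%) and 2 lower in Q175, and 4 of the 9 members were among the genes that rose. Irf7 had 1.39, 2.00 and 3.33 CPM in Q140 and was higher in Q175 by 0.94 (SE 0.167, adjusted p = 0.000853). Usp18 was higher by 0.94 (adjusted p = 0.00558), Rtp4 by 0.84 (adjusted p = 0.00295) and Ifit1 by 0.73 (adjusted p = 0.0256). Oasl2 (0.72, adjusted p = 0.11), Ifit3 (0.59, 0.0612), Ifi27 (0.30, 0.0621), Bst2 (0.52, 0.59) and Isg15 (0.34, 0.932) did not pass. Of the 69 genes higher in Q175, 18 (26.1%) were members or stood on the lists of other interferon-stimulated genes, nucleic acid sensors, interferon regulatory factors and antigen presentation, which is 15.1% of the 119 tested genes of those 5 lists. On FPKM, where Usp18 was filtered out, 2 members were called. Of 13897 genes, 43 were called on log2(FPKM + 1) and 40 on log2(FPKM + 0.1). At 6 months no member was called between Q175 and Q140 (edgeR, 0 of 9; 6 at an unadjusted p under 0.05), in a comparison where 0.21% of all genes were. Leaving out single libraries was not run for Q175 against Q140.

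In the lines from Q80 to Q140 no member was called against Q20. At 10 months mean Irf7 was 2.46 CPM in wild types, 2.10 in Q20, 2.13 in Q80, 1.88 in Q92, 2.05 in Q111, 2.08 in Q140 and 4.02 in Q175. Mean Usp18 was 1.40 CPM in wild types, 1.32 in Q20, 1.32 in Q80, 1.21 in Q92, 1.09 in Q111, 1.14 in Q140 and 2.19 in Q175. For both regulators the means of the wild types and the 5 shorter lines differed by less than the SD between Q175 libraries, and the Q175 mean stood above them. Rtp4 averaged 2.22 CPM in wild types, 2.05 in Q20, 2.12 in Q80, 1.8 in Q92, 1.75 in Q111, 1.81 in Q140 and 3.22 in Q175. Ifit3 averaged 12.6 CPM in wild types, 11.7 in Q20, 11 in Q80, 8.72 in Q92, 9.77 in Q111, 10.4 in Q140 and 15.7 in Q175. Ifi27 averaged 21.3 CPM in wild types, 20.1 in Q20, 21.7 in Q80, 19.6 in Q92, 19.6 in Q111, 20.5 in Q140 and 25.1 in Q175. The order of the groups below Q175 differed from gene to gene. No member was called in Q80, Q92, Q111 or Q140 against Q20 at any age (edgeR). At an unadjusted p under 0.05 there was 1 such member, Ifit3 in Q92 at 10 months (-0.36, adjusted p = 0.28). Of all genes, Q80 had 0.0118%, 0.289% and 0.122% called against Q20 at 2, 6 and 10 months, Q92 had 0%, 5.99% and 1.12%, Q111 had 0.0176%, 12.8% and 12.5%, and Q140 had 0%, 27.9% and 22.5%. Along the 6 knock-in lines at 10 months, 5 of the 9 members rose with repeat length, against 32.8% of all genes called and 15.9% higher. They were Irf7 (0.06 log2 per 10 repeats, adjusted p = 0.000317), Usp18 (0.04, 0.0205), Ifit1 (0.04, 0.0164), Rtp4 (0.03, 0.0207) and Ifi27 (0.02, 0.0129). The test treats 8 libraries of a line as independent although repeat length differs between 6 lines only. Without Q175 no member was called along the other 5 lines, and the slope was below 0 for Usp18, Oasl2, Ifit1, Ifit3, Bst2 and Rtp4. No member was called along the lines at 2 months (0.354% of all genes called) or 6 months (39.9%; edgeR, 0 of 9 at an unadjusted p under 0.05 at both ages).

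**Figure D2:**
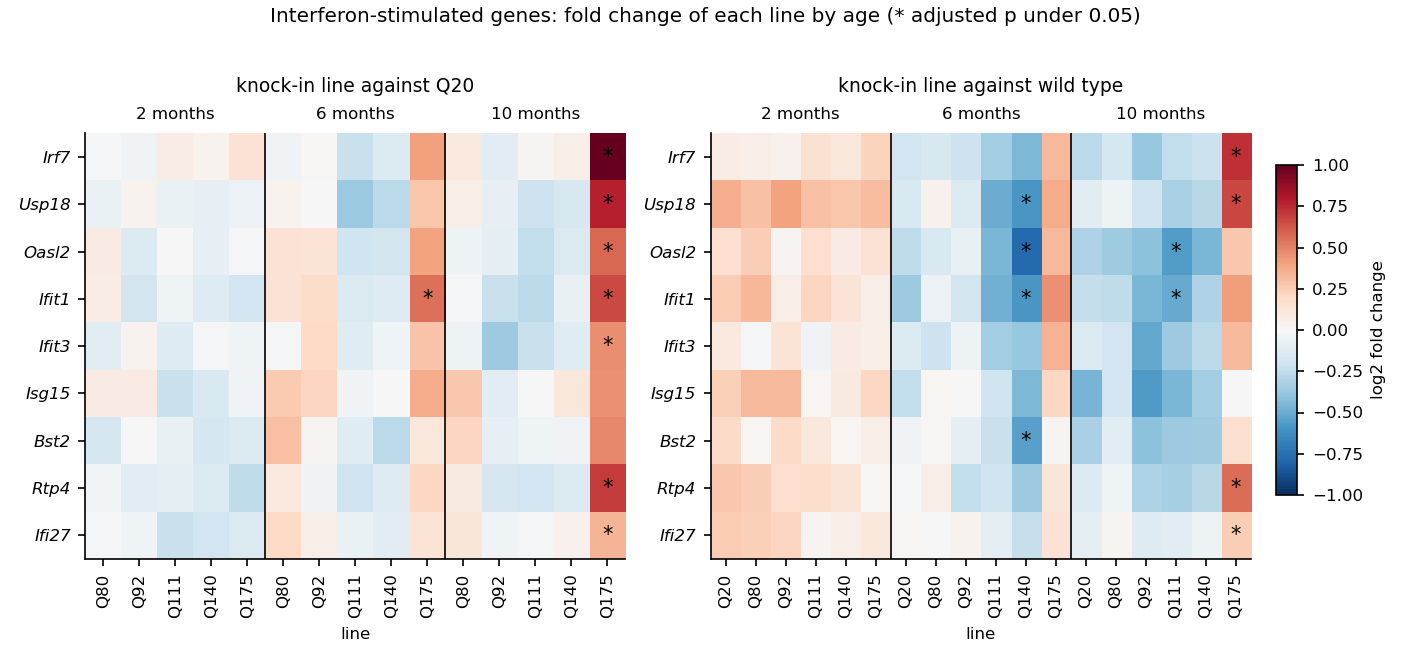
Log2 change of the 9 genes (down the page) in each knock-in line at each age, against Q20 and against wild type; colour gives the size and direction and an asterisk an adjusted p under 0.05. The column of Q175 at 10 months holds 7 asterisks against Q20 and 4 against wild type, and the asterisks of lower level are in Q140 at 6 months and Q111 at 10 months against wild type only.

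Against wild types some members were lower in lines other than Q175. In Q140 at 6 months all 9 differences were negative and 4 genes fell against their own cage mates, where 24.2% of all genes were called and 11.7% lower: Oasl2 (-0.78, adjusted p = 0.00672), Ifit1 (-0.59, 0.0253), Usp18 (-0.58, 0.0341) and Bst2 (-0.54, 0.0317). Oasl2 had 2.75, 3.35 and 4.74 CPM in Q140 and 3.0, 4.38 and 12.7 CPM in those wild types. The wild types held 3 females with high levels, F1, F3 and F4, with summed levels of the 9 genes of 73.9, 79.2 and 66.3 CPM. The call of Oasl2 was lost without F3 (adjusted p = 0.0508). Ifit1 lost its call without F1 (0.0736) or F3 (0.103), and Usp18 and Bst2 lost theirs without F1 (0.146 and 0.101), F3 (0.0703 and 0.0843) or F4 (0.0594 and 0.0605). Usp18 and Bst2 also lost their calls without the Q140 females F2, F3 or F4 (0.0511 to 0.0803), and Usp18 without the Q140 males M3 (0.0723) or M4 (0.0595). Irf7 (0.035), Ifit3 (0.0445) and Isg15 (0.0465) gained a call without the wild-type female F2, and Isg15 without the wild-type male M2 (0.0405). The number of members called ran from 0 to 7 over these fits. Against the wild types of all 6 cages 3 members were called, where 6203 of 17642 genes were called and 2974 were lower.

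In Q111 at 10 months Oasl2 (-0.56, adjusted p = 0.0488) and Ifit1 (-0.50, adjusted p = 0.039) were lower than in wild types, where 16.6% of all genes were called and 8.54% lower. Oasl2 had 2.92, 3.84 and 5.63 CPM in Q111 and 3.10, 5.85 and 9.94 CPM in wild types. The call of Oasl2 was lost without Q111 F2, F3, F4, M1 or M2 or wild-type F2, F3, F4 or M2 (adjusted p = 0.0614 to 0.129). That of Ifit1 was lost without Q111 F2, F3, F4, M1, M2 or M4 or wild-type F2, F4, M2 or M3 (0.0504 to 0.141). Ifit3 gained a call without wild-type F1 (0.0403) and Isg15 without wild-type M3 (0.0453). No member was called in the other comparisons of a line with its wild types at 2, 6 or 10 months (edgeR). At an unadjusted p under 0.05 there were up to 5 such members, in Q92 at 10 months. The shares of all genes called there were, at 2, 6 and 10 months, 0.0235%, 0.051% and 0.099% in Q80 and 0%, 0.051% and 1.74% in Q92. They were 0% and 0.0227% in Q20 at 2 and 6 months, 0.388% and 8.94% in Q111 at 2 and 6 months, and 0.0706% and 20.9% in Q140 at 2 and 10 months. The 6 wild-type groups of 6 months were not called different from each other for any member (edgeR, lowest adjusted p = 0.62; 0 at an unadjusted p under 0.05; 1.34% of all genes called).

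At 2 months no rise of the members was called in Q175. Against Q20 8 of the 9 differences were negative and 1 was positive. Against wild types all 9 were positive, with a median of 0.11 and up to 0.31. The Q20 libraries M2 and M3, among the 7 that stood apart, had the highest summed levels of their group, 59.3 and 53.7 CPM. Irf7 had 2.00, 2.20 and 2.87 CPM in Q175 and 1.63, 2.08 and 2.45 CPM in Q20. No member was called in Q175 at 2 months against Q20 or wild type (edgeR, 0 of 9 at an unadjusted p under 0.05 in both), where 0.218% and 0.465% of all genes were called. The Q175 mean was the highest of the knock-in means for 1 member at 2 months, for 7 at 6 months and for 9 at 10 months. With wild types included it was the highest of all groups for 1, 2 and 8 members. At 6 months the wild types housed with Q140 had the highest mean for Usp18, Oasl2, Ifit3, Isg15 and Rtp4.

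At 6 months the group means of Irf7 ran from 1.84 CPM in Q111 to 2.85 CPM in Q175, and those of Oasl2 from 3.44 CPM in Q111 to 6.23 CPM in the wild types housed with Q140. Ifit1 was the only member to rise against Q20, by 0.55 (SE 0.2, adjusted p = 0.0242), when 36.2% of all genes were called and 18% higher. Ifit1 had 1.98, 3.15 and 5.69 CPM in Q175 and 1.87, 2.23 and 3.74 CPM in Q20. Irf7 had 1.76, 2.62 and 4.06 CPM in Q175 and 1.31, 2.23 and 2.64 CPM in Q20, a difference of 0.41 (adjusted p = 0.0833) that did not pass. The call of Ifit1 was lost without Q175 F4 (0.0704), Q175 M3 (0.167) or Q20 F1 (0.0641). Irf7 gained a call without Q175 F1 (0.0363) or Q20 M3 (0.0412), as did Isg15 without Q175 F1 (0.0463). Against wild types of 6 months no member was called (edgeR, lowest adjusted p = 0.0677; Ifit1 and Ifit3 at an unadjusted p under 0.05; 31.8% of all genes called).

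The change of the Q175 effect with age was tested in a fit of all libraries. Between 2 and 10 months the difference between Q175 and Q20 grew for all 9 members and passed for 4, where 6.33% of all genes were called and 2.26% higher: Rtp4 (0.94, SE 0.239, adjusted p = 0.00538), Irf7 (0.84, SE 0.246, 0.0221), Ifit1 (0.83, SE 0.253, 0.0275) and Ifi27 (0.48, SE 0.156, 0.0422). Without the 7 libraries of 2 months that stood apart, 2 of which were Q20, 1 member was called. In that fit 917 of 17955 genes were called and 282 were higher. Between 2 and 6 months Ifit1 passed (0.75, adjusted p = 0.0488; 7.88% of all genes called and 3.45% higher), and it did not without those libraries. Between 6 and 10 months no member was called (edgeR, Irf7 and Rtp4 at an unadjusted p under 0.05), and 2 genes of 17863 were (0.0112%).

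**Figure D3:**
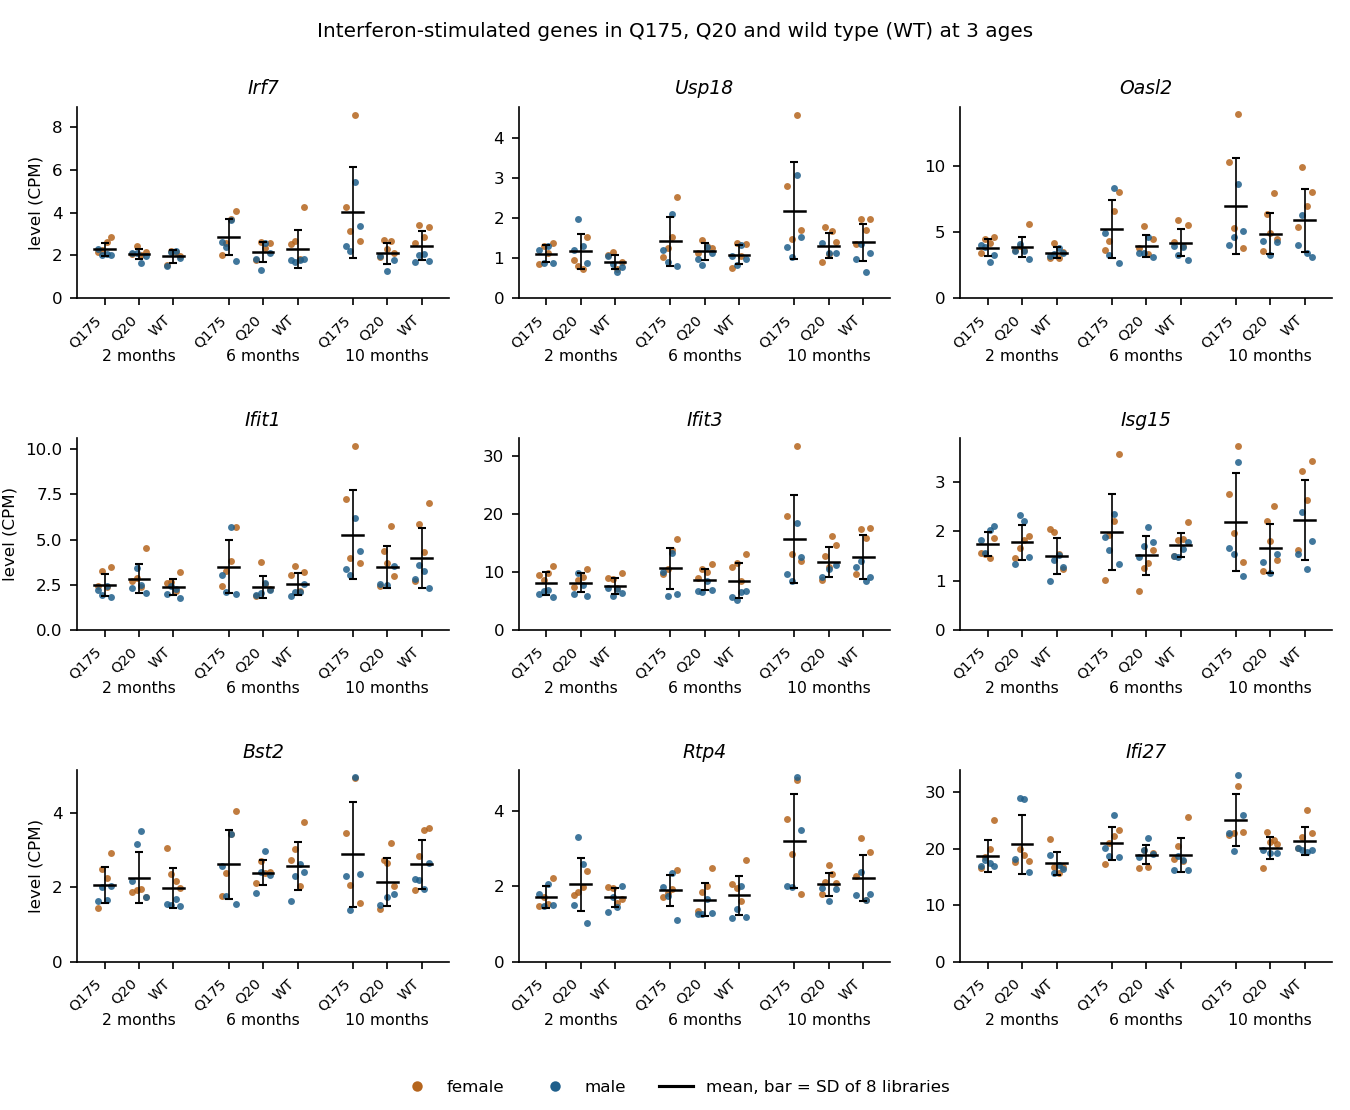
Level of each of the 9 genes in CPM at 2, 6 and 10 months in Q175, Q20 and wild types; points are libraries coloured by sex, horizontal lines are means and vertical bars the SD of 8 libraries. Irf7 in Q175 has medians of 2.20, 2.62 and 3.27 CPM at 2, 6 and 10 months, with the spread between libraries widening, and Q20 has 2.08, 2.23 and 2.04 CPM.

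Wild types of 10 months had higher levels than wild types of 2 months. Of the 9 members 6 rose, where 23.7% of all genes were called and 12.1% higher. Ifit3 had 8.42, 11.4 and 17.5 CPM at 10 months and 5.83, 7.23 and 9.78 CPM at 2 months (0.70, SE 0.153, adjusted p = 0.000163), and all 8 older libraries lay above the mean of the younger. Oasl2 (0.73, adjusted p = 0.00346), Ifit1 (0.72, 0.00124), Usp18 (0.61, 0.0283), Isg15 (0.56, 0.0199) and Ifi27 (0.30, 0.0382) also rose. Irf7 (0.30, adjusted p = 0.225), Bst2 (0.41, 0.126) and Rtp4 (0.37, 0.108) did not pass. In Q20 only Ifit3 rose between these ages (0.45, adjusted p = 0.0202, with 24.3% of all genes called and 10.4% higher). Whether Q20 and wild types differ in their change with age was not tested. The Q20 libraries M2 and M3 of 2 months stood apart. The change in Q20 was 0.11 for Usp18, -0.04 for Rtp4, -0.12 for Bst2 and -0.05 for Ifi27. It reached 0.40, 0.25, 0.18 and 0.17 over 2 alternatives, without the libraries that stood apart and on log2(FPKM + 1). None of these 4 genes was called in either. Of 69 other interferon-stimulated genes 29 rose in the same wild types and 1 fell, with a median of 0.32 against -0.01 over all genes. Of 20 antigen presentation genes 7 rose, and of 14 microglia markers 3 rose and 1 fell. No member was called between 6 and 2 months in wild types (edgeR, Usp18, Oasl2, Ifit1 and Ifit3 at an unadjusted p under 0.05; 29.9% of all genes called).

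Between the sexes 8 of the 9 members were called at 6 months, 5 at 10 months and 2 at 2 months, all lower in males. At 6 months, over 48 males and 48 females, 8 of the 9 members were lower in males, where 18.5% of all genes were called and 9.81% lower. Ifit3 had 4.96, 7.0 and 18.9 CPM (lowest, median and highest) in males and 7.98, 10.5 and 19.1 CPM in females, and 46 of 48 males lay below the female mean. Its log2 difference was -0.63 (SE 0.069, adjusted p = 1.03e-11), and the male mean was lower in 12 of 12 groups. Irf7 had 1.31, 1.82 and 4.34 CPM in males and 1.53, 2.44 and 4.47 CPM in females (-0.43, adjusted p = 2.32e-05). Oasl2 (-0.48, adjusted p = 6.77e-05), Usp18 (-0.45, 5.25e-05), Ifit1 (-0.42, 6.8e-05), Rtp4 (-0.34, 0.000118), Isg15 (-0.24, 0.027) and Bst2 (-0.23, 0.035) were lower as well. For Irf7, Usp18, Oasl2, Ifit1 and Rtp4 the male mean was lower in 11 of 12 groups, and for Isg15, Bst2 and Ifi27 in 10 of 12. Ifi27 did not pass (-0.08, adjusted p = 0.201). The sexes overlapped widely for every member. With wild types alone 7 members were called, where 1403 of 17305 genes were. With knock-in libraries alone 4 were, where 852 of 17370 genes were.

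At 10 months 5 members were lower in males, in a comparison where only 1.28% of all genes were called and 0.944% lower. They were Ifit3 (-0.53, adjusted p = 2.7e-05), Ifit1 (-0.48, 0.00166), Oasl2 (-0.52, 0.00358), Irf7 (-0.42, 0.00599) and Usp18 (-0.43, 0.0218), and for these the male mean was lower in 7 of 7 groups. With knock-in libraries alone 3 were called, where 247 of 17108 genes were. With wild types alone none was (edgeR). That fit held 4 males and 4 females, and only 3 of 15433 genes were called in it. It therefore cannot show whether the difference is absent in wild types. At 2 months Ifit3 (-0.37, adjusted p = 9.09e-06) and Ifit1 (-0.28, adjusted p = 0.0304) were lower in males in 7 of 7 groups, where 0.923% of all genes were called and 0.629% lower. The other 7 did not pass at that age, and 4 of them (Usp18, Isg15, Bst2 and Ifi27) had differences above 0, up to 0.07. Ifit3 had 5.16, 6.69 and 10.1 CPM in males and 6.92, 8.87 and 11 CPM in females of that age. The difference between Q175 and Q20 was not called unequal between the sexes for any member at any age (edgeR, up to 1 at an unadjusted p under 0.05), and neither was it for any other gene (0% called).

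Other interferon genes went with the members in sex. At 6 months 30 of 69 other interferon-stimulated genes and 11 of 20 antigen presentation genes were lower in males and none higher. Of all genes 9.81% were called lower in males in this comparison, and 1540 of 17642 higher. Red blood cell genes were higher in males for 5 of 5, endothelial and mural markers for 7 of 13 with 2 lower, and 3 of 14 microglia markers were lower. Their part in the sex difference was not tested.

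**Figure D4:**
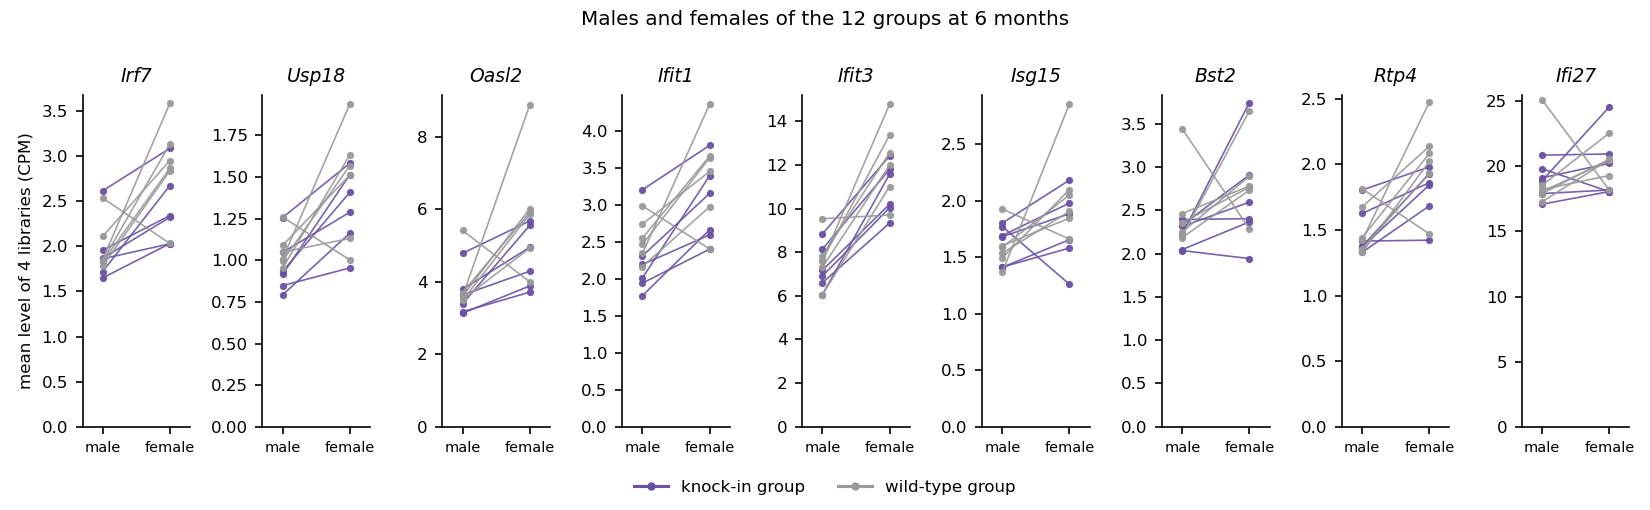
Mean level at 6 months in CPM of males (left) and females (right) for each of the 9 genes; each line joins the sexes of 1 of the 12 groups, knock-in in purple and wild type in grey. Lines rise towards females in 12 of 12 groups for Ifit3 and in 11 of 12 for Irf7, and they lie almost flat for Ifi27.

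Within groups the members varied together at 6 and 10 months. At 6 months the SD of log2 CPM within groups was 0.326 to 0.416 for all members but Ifi27 (0.198), while the median over genes at 1 to 30 CPM was 0.139. Irf7 had a wider spread than 94.1% of those genes and Oasl2 than 95.7%. At 10 months the SD was 0.314 (Ifit3) to 0.434 (Bst2) for all members but Ifi27, against a median of 0.158 for genes at 1 to 30 CPM. Ifi27 had an SD of 0.157, wider than that of 49.4% of those genes. At 2 months the members lay on both sides of the median of 0.234. The spreads of that age include the 7 libraries that stood apart and were not computed without them. Whether the members spread more than other genes in the remaining libraries was therefore not tested. Irf7 (0.220), Oasl2 (0.219) and Ifit3 (0.190) were below it, and the other 6 were above it, up to 0.357 for Usp18, which was wider than 78.3% of those genes.

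Deviations from the mean of an animal's group and sex were compared between Irf7 and each of the other 8 members, 24 relations in all, with permutation tests adjusted over them. At 6 months (n = 96) Pearson's r was 0.64 to 0.82 and Spearman's rho 0.70 to 0.79. The adjusted permutation p of each r was 1e-05, the smallest that the permutations can give. Without the 2 libraries farthest from the median of Irf7, r was 0.64 to 0.79. At 10 months (n = 56) r was 0.66 to 0.78, each with an adjusted permutation p of 1e-05, and rho 0.53 to 0.73. There r was 0.52 to 0.72 without the 2 farthest libraries. At 2 months r was 0.08 to 0.46, and Oasl2 alone passed by r (r = 0.46, rho = 0.45, adjusted permutation p = 0.000536 for r), with Ifit1 passing by rho (0.32, adjusted permutation p = 0.0242). The correlations of that age include the 7 libraries that stood apart and were not run without them.

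**Figure D5:**
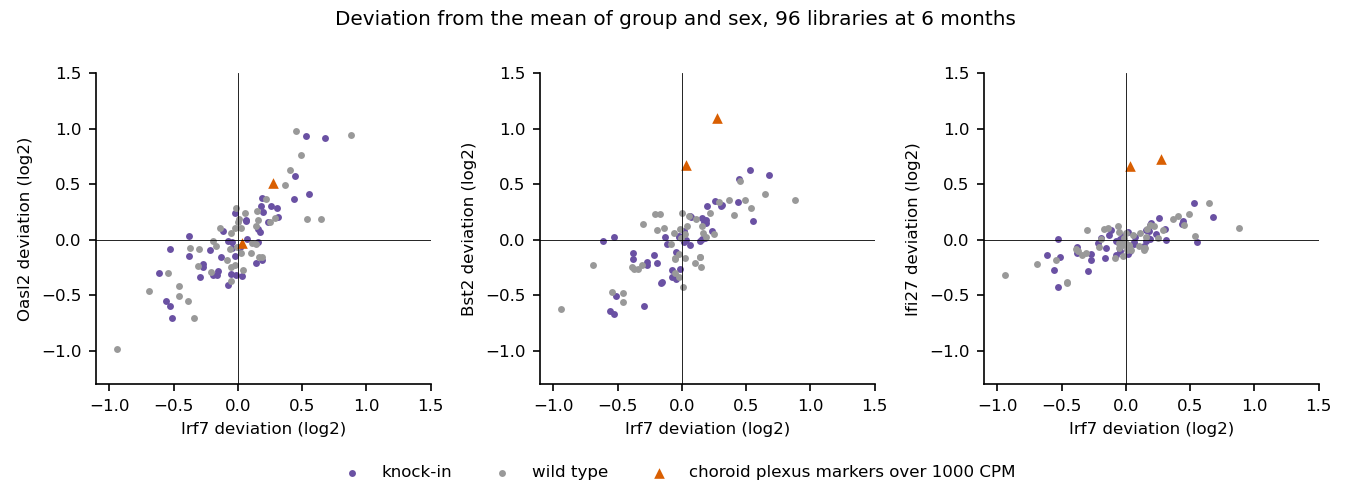
Deviation of Oasl2, Bst2 and Ifi27 (vertical axes) against that of Irf7 (horizontal axis) at 6 months, both in log2 CPM from the mean of the library's group and sex; points are 96 libraries. The points rise together for the 3 genes, and the 2 triangles, libraries with high choroid plexus markers, lie above the rest for Ifi27.

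Among the 10 genes most like the members at 6 months, by mean Pearson correlation of the same deviations with the 9 members over 96 libraries and 14515 genes, were Rnf213 (0.74), B2m (0.73), Gm43302 (0.73), H2-D1 (0.72), Irgm1 (0.71), Nlrc5 (0.70), H2-K1 (0.69), Ifit3b (0.68) and Igtp (0.68). Of these 10, 5 stood on the list of other interferon-stimulated genes, and B2m, H2-D1, H2-K1 and Nlrc5 serve antigen presentation. At 10 months 9 of the 10 most like genes stood on that list, and 4 were shared with 6 months. At 2 months none stood on it, and the 3 shared with 6 months were the antigen presentation genes H2-K1, H2-D1 and B2m. The ranking of 2 months also includes the libraries that stood apart.

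Libraries far above their group occurred at all ages and in wild types too. At 6 months the summed level of the 9 genes reached 79.2 CPM in a wild type housed with Q140, 76.7 CPM in one housed with Q80 and 73.2 CPM in one housed with Q92. A single library was the highest of its group for all 9 members in Q140 at 10 months (F3), in Q92 at 6 months (F2) and in the wild types of 6 months housed with Q20 (F2), Q92 (F3) and Q111 (F2).

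Genes that send and receive the interferon signal were compared in Q175 at 10 months, where 12.4% of all genes were called higher than in Q20. Of 21 genes for the interferons themselves 17 were in the files, 4 of them had no count in any library, the highest count of any was 5.06, and none passed the filter, so ligands could not be compared at this depth. Of 6 receptor genes 2 rose against Q20, among them Ifngr2, a chain of the type II interferon receptor, at 26.8 ± 2.05 CPM in Q175 and 20.4 ± 0.877 CPM in Q20 (log2 change 0.40, adjusted p = 1.11e-08). Of 16 tested sensors and adaptors 4 rose and none fell: Eif2ak2 (0.41) and Ddx58 (0.33), which recognise viral RNA, the adaptor Myd88 (0.29) and the sensor Ifih1 (0.22). Of 8 other interferon regulatory factors Irf2 (0.20) and Irf3 (0.16) rose.

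Among other genes known as targets of interferon, some rose at 10 months, again against 12.4% of all genes called higher. Of 67 tested other interferon-stimulated genes 26 rose and 1 fell against Q20, with a median of 0.22 against 0.01 over all genes. Mx2, an antiviral GTPase, averaged 1.66 ± 0.598 CPM in Q175 and 0.947 ± 0.281 CPM in Q20 (0.83, adjusted p = 0.000511). Ddx60 (0.64), Rsad2 (0.60), which makes an antiviral nucleotide, and Slfn8 (0.56) rose as well. Of 20 antigen presentation genes 7 rose and none fell: Cd74, the invariant chain of class II, averaged 4.22 ± 1.07 CPM in Q175 and 2.60 ± 0.772 CPM in Q20 (0.74, adjusted p = 0.000437), and Psme1 (0.37), H2-D1 (0.36) and Psmb10 (0.30) were also higher. Against wild types 15 of 67 other interferon-stimulated genes rose and 1 fell, and 7 of 20 antigen presentation genes rose. There 12.5% of all genes were called higher. At 6 months, where 18% of all genes were called higher than in Q20 and 36.2% in either direction, the counts were 11 higher and 3 lower of 69 other interferon-stimulated genes, and 4 antigen presentation genes higher of 20, with Psme1 (0.42, adjusted p = 6.4e-12) and Psmb10 (0.40, adjusted p = 1.98e-06) among the 4. The receptor gene Ifngr2 rose at that age too (0.52, adjusted p = 3.37e-15). In Q140 against its wild types at 6 months 16 of 69 other interferon-stimulated genes fell and 1 rose, where 11.7% of all genes were called lower.

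Striatum is a mixture of cells, and in such bulk RNA fewer cells of a type and less RNA per cell cannot be told apart. The labelled tissue was seen in its medium spiny neuron markers, whose 12 summed levels at 10 months ran from 3661 to 4871 CPM in Q175 and from 6383 to 8963 CPM in Q20; 11 of the 12 fell in Q175, at 6 months too. The 14 microglia markers summed to 650 to 771.8 CPM in Q175 (median 726) and 666 to 779.3 CPM in Q20 (median 723), with Ctss higher (0.17, adjusted p = 0.00988) and Cx3cr1 lower (-0.14, adjusted p = 0.0437). Q140 had 600 to 706.3 CPM of the same markers at 10 months. The summed microglia markers were 746 CPM in Q175 F3 and 679 CPM in Q175 M3, within the range of their group.

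The 17 leukocyte markers summed to 50.6 to 70.9 CPM in Q175 and 72.4 to 113 CPM in Q20. Cd4 made up most of this sum and fell (-0.68, adjusted p = 1.67e-07), while Ptprc, the pan-leukocyte marker CD45, rose (0.25, adjusted p = 0.0233); 7 of the 17 passed the filter. The 13 endothelial and mural markers summed to 473 to 554 CPM in Q175 and 524.3 to 614 CPM in Q20, and 6 fell. Of 10 astrocyte markers 2 rose, Gfap among them at 0.48, and 6 fell. Of all 17170 genes tested in Q175 against Q20 at 10 months, 2136 were called higher and 2076 lower. The 10 choroid plexus and ependymal markers summed to 35.3 to 125 CPM in Q175 and 37.4 to 164 CPM in Q20, with no member of that list called. None of these markers was at 0 throughout a group. The part of cell makeup in the rise of the interferon-stimulated genes was not tested, apart from a fit with scores of the choroid plexus and cortical neuron markers as covariates. In it 6 of the 9 members were called in Q175 against Q20 at 10 months and 4 against wild types. Of 17170 genes, 4396 were called there against Q20, 2236 of them higher. Against wild types 4223 were called, 2138 of them higher.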

How the data were processed

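Polyadenylated striatal RNA was sequenced on Illumina HiSeq, per the labels' protocols; CASAVA 1.8.2 is named in the submitters' processing notes. For the aligner and the genome build, none is given in the sources used here. The authors deposited expected counts, estimated reads per gene, which were rounded here to whole numbers, and FPKM, fragments scaled for gene length and library size, which were used for levels between genes and in alternatives. A symbol was matched to 37607 of 39179 gene IDs.

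Each age was fitted with edgeR 4.0.16 (R 4.3.3; TMM factors, filterByExpr with a minimum count of 10 and total of 15, quasi-likelihood with robust moderation), with a term for each group and 1 for sex, over 17006, 17642 and 17170 genes at 2, 6 and 10 months. Differences between ages were fitted over all libraries, and p-values were adjusted by Benjamini-Hochberg over the genes of each test. The fits were tested on simulated data. Correlations use log2 CPM (prior count 1) and 100000 permutations. Alternatives were DESeq2 1.42.0, RLE factors, no filter, limma 3.58.1 on log2(FPKM + 1) or log2(FPKM + 0.1) after a filter of 1 FPKM or more in 8 libraries, further covariates, other sets of libraries and leaving out single libraries. The covariates were the L code (the letter L with a number in the library names, whose meaning the labels do not give) and tissue scores from choroid plexus and cortical neuron markers. P-values measure the spread between animals as labelled. In the edgeR fits this spread is estimated per gene and shared by all groups fitted together. At 10 months Irf7 ran from 2.22 to 8.58 CPM in Q175 and from 1.28 to 2.73 CPM in Q20. The shared spread may therefore understate the error in Q175. Fewer members were called in Q175 at that age, against Q20 and against wild types, once the other groups were left out.

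The 9 genes, the pathway and marker lists and the tests were chosen with earlier results of these data known. From each list up to 4 called genes with the largest absolute log2 change and a mean of at least 1 CPM are named for Q175 against Q20 or wild types at 10 and 6 months, and the genes most like the members are the top 10 at 6 months; some results the rule covers are not reported here. The replicate numbers recur across groups of different animals: for Q175 and its references, 0 to 5 of 7 or 8 same-numbered pairs deviated together with a correlation over 0.1, so the numbers were not taken as pairs.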

Additional observations from a re-analysis of the deposited data

Results flagged for a closer look

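A test for a single library far from the other 7 of its group (its gap to the nearest library, relative to the range of the group, above Dixon's 95% critical value) was met by 35 of 234 sets of 1 gene in 1 group: 4 of 63 at 2 months, 24 of 108 at 6 months and 7 of 63 at 10 months. Chance alone gives about 1 in 20, or 5%. The sets are not independent, because the members vary together.

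Several libraries met it for more than 1 member. In the wild types of 6 months housed with Q80, male M3 stood high for Irf7 (4.34 CPM), Usp18 (2.27 CPM), Oasl2 (9.58 CPM), Ifit1 (5.42 CPM), Ifit3 (18.9 CPM) and Isg15 (3.32 CPM). In the wild types housed with Q92, female F3 stood high for Oasl2 (10.5 CPM), Ifit1 (4.99 CPM), Bst2 (3.91 CPM) and Rtp4 (3.07 CPM). In those housed with Q111, female F2 stood high for Ifit1 (5.65 CPM) and Ifit3 (18.7 CPM), in those housed with Q175 female F4 for Irf7 (4.27 CPM) and Ifi27 (25.6 CPM), and in those housed with Q20 female F2 for Ifit1 (5.74 CPM). Among knock-in mice of 6 months, Q92 F2 stood high for Irf7 (4.08 CPM), Oasl2 (8.69 CPM) and Bst2 (3.78 CPM), Q140 F1 for Usp18 (1.78 CPM) and Q20 F2 for Ifit1 (3.74 CPM), while Q111 M3 stood low for Usp18 (0.482 CPM).

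Ifi27 and Bst2 were also high in libraries rich in choroid plexus markers. Q80 F3 at 6 months had 38.6 CPM of Ifi27 and 7.05 CPM of Bst2 with 5713 CPM of summed choroid plexus and ependymal markers, and wild-type M2 housed with Q80 had 37.9 CPM of Ifi27 with 5795 CPM of those markers. In the other libraries of these groups the markers summed to 43.3 to 143 CPM and 44.1 to 113 CPM. Their part in the high Ifi27 was not tested.

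At 10 months Q140 F3 stood high for Irf7 (3.33 CPM), Usp18 (2.36 CPM), Oasl2 (8.78 CPM) and Ifit1 (5.51 CPM). Q111 F1 stood high for Irf7 (3.04 CPM), Q80 M4 for Ifi27 (27.3 CPM) and wild-type F3 for Ifi27 (26.8 CPM). At 2 months Q20 F4 (5.62 CPM) and Q80 F2 (5.59 CPM) stood high for Oasl2, and Q175 F4 (25 CPM) and Q80 M5 (36.3 CPM) for Ifi27. Q80 M5 is among the 7 libraries of 2 months that stood apart.

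The difference between Q175 and Q20 was itself called unequal between ages, by a test of that difference in log2 (edgeR). In it 10 minus 2 months gave 0.84 for Irf7, 0.83 for Ifit1, 0.94 for Rtp4 and 0.48 for Ifi27, and 6 minus 2 months gave 0.75 for Ifit1. Without the 7 libraries of 2 months that stood apart Irf7 kept its call. Ifit1 (adjusted p = 0.0846), Rtp4 (0.0836) and Ifi27 (0.288) lost theirs, as did Ifit1 at 6 minus 2 months (0.105). Each age was a cohort of its own, so age and cohort cannot be told apart.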

How the results depend on the processing

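In Q175 against Q20 at 10 months the count of 7 members stayed within 1.5 times in each alternative but the fit of only the groups compared (4), and leaving out 1 library gave 5 to 9. Against wild types the 4 became 1 in that fit and 2 to 6 without 1 library, and against Q140 the 4 became 2 with both FPKM pseudocounts. At 6 months the 1 member against Q20 became 2 with each FPKM pseudocount, 0 with the L code of the library names, with only the groups compared and with tissue scores, and 0 to 3 without 1 library; against wild types 0 became 2 on FPKM (both pseudocounts), 1 with the L code and 0 to 1 without 1 library. Counts of lower members in Q140 against wild types at 6 months (4) were 2 with no filter, 1 with the L code and 0 to 7 without 1 library, and in Q140 against Q20 (0) 2 with tissue scores. In Q111 against wild types at 10 months (2) they were 0 with no filter and on log2(FPKM + 1), 1 on log2(FPKM + 0.1), 1 with the L code and 0 to 3 without 1 library. At 6 months in Q111 (0) there were 2 against all 6 wild-type groups, and at 10 months 1 in Q92 (0) with DESeq2 and with only the groups compared, and 1 in Q140 (0) with the L code. Of all genes, Q175 against Q20 at 6 months had 7224 of 13966 called on log2(FPKM + 1) and 6385 of 17642 with the L code. It had 6269 of 16769 with only the groups compared and 6125 of 17642 with tissue scores. Q140 against wild types at 6 months had 1754 of 28696 lower with no filter and 1906 of 17642 with the L code. Q111 against wild types at 10 months had 1306 of 28463 lower with no filter and 1423 of 17170 with the L code.

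Males against females gave 4 lower members (of 8) in knock-in libraries at 6 months. The same comparison gave 3 (of 5) in knock-in libraries and 0 in wild types at 10 months, and 1 (of 2) and 0 at 2 months. The wild-type fits of 10 and 2 months held 4 males and 4 females each. Only 3 of 15433 and 2 of 15240 genes were called in them. Along the lines, 10 months gave 0 without Q175 and 6 months 1 without Q20. Without the libraries of 2 months that stood apart, the age differences gave 1 (10 minus 2 months), 0 (6 minus 2 months; 0 with RLE factors too) and, in wild types at 6 against 2 months, 1. The cause of these moves was not tested. The fits by genotype for sex, the reference of all 6 wild-type groups, and leaving out single libraries of Q140 or Q111 with their wild types were chosen after seeing the data, as was leaving out the Q80 male without Y-linked counts, which changed no count of members called at 2 months.

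With sex and replicate number as a block, the replicate block gave 6 members in Q175 against Q20 and 4 against wild types at 10 months, and 1 in place of 2 in Q111 against wild types. Sex itself lies within that block, so males were not compared in it.

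Signs turned for Isg15 in Q175 against wild types at 10 months, from -0.00 to 0.017 and 0.013 (limma with pseudocounts 1 and 0.1), 0.0041 (only the groups compared) and -0.17 to 0.087 without 1 library. They also turned for Bst2 against wild types when Q175 M3 was left out (-0.035, the lowest of the range up to 0.26 without 1 library) and against Q20 at 6 months with tissue scores (-0.054). Slopes at 10 months without Q175 were -0.018 for Usp18, -0.017 for Oasl2, -0.013 for Ifit1, -0.015 for Ifit3, -0.0063 for Bst2 and -0.016 for Rtp4. Correlations with Irf7 at 2 months in wild types and Q20 were -0.22 for Usp18, -0.17 for Ifit3, -0.37 for Bst2, -0.083 for Rtp4 and -0.46 for Ifi27, and on FPKM -0.078 for Rtp4 and -0.20 for Ifi27. In Q20 at 10 against 2 months the changes of Irf7, Isg15, Bst2, Rtp4 and Ifi27 were below 0 in the main fit. Over 2 alternatives they reached 0.040, 0.045, 0.18, 0.25 and 0.17. Among single-gene values 105 lost a call, 39 gained one and 20 changed sign. Counts of 21 to 163 per library limit Usp18 most.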
